A study of Mus musculus with 39 samples.

Results

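The IFIT and OAS genes are antiviral effectors that cells switch on in response to interferon. Their levels were measured by RNA sequencing of whole AB1-HA tumours from mice given tretinoin, immune checkpoint therapy (ICT), both, or neither. Genes were taken by symbol from the deposited count table, which gave 9 of its 39676 genes: Ifit1, Ifit2, Ifit3, Oas1a, Oas1g, Oas2, Oas3, Oasl1 and Oasl2. The AB1-HA line, from a murine mesothelioma, had been transfected with haemagglutinin of influenza virus and was grown under the skin of BALB/c mice, so all groups share the line, the strain and a viral antigen. The PBS group held 10 tumours, the tretinoin group 9 (tretinoin, all-trans retinoic acid, 5 daily doses of 5 mg/kg from day 4), the ICT group 10 (100 µg of antibody to CTLA-4 and 100 µg to PD-L1 on day 7) and the tretinoin+ICT group 10. Other doses of tretinoin appear in places in the study's text, and those given here are the ones on the labels. Tumours were removed on day 9. Within the tretinoin+ICT group, 6 tumours came from responders and 4 from non-responders, as judged by the fate of the other tumour of the same mouse. The mice, of both sexes, were 8 to 10 weeks old when obtained, and the labels give no age or sex for single tumours.

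The libraries held 14033046 to 37951183 counts (median 18548168). In the most similar of 741 pairs of tumours the chi-square per gene was 9.85, so that no pair agreed within sampling noise. Of 6 listed mesothelial markers 5 were found, with Upk3b at no more than 1 count in a tumour, and in 3 tumours only. Their summed level was between 0.383 and 6.51 CPM (counts scaled to a common library total). Wt1, the only one tested against PBS, rose by 1.12 after tretinoin, 1.40 after ICT and 2.39 after both (edgeR adjusted p = 0.0157, 0.00443 and 2.71e-05). The 5 mesothelial markers found were therefore low, whereas leukocyte RNA was plain, with Ptprc between 159 and 765 CPM. The listed marker not found was Msln, so its level is not known here. In whole tumours, more cells of a type and more RNA per cell cannot be told apart. Tumour names begin with a digit, here called the series, and each treatment had 2 series that no other treatment shared, so series and treatment cannot be told apart. The labels do not say that all tumours came from separate mice, and p-values measure only the spread between these tumours.

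Interferons are secreted by cells that sense viral or misplaced nucleic acid. Type I interferons act through their receptor, JAK kinases and a complex of transcription factors that includes IRF9, which binds a short DNA motif, the interferon stimulated response element, in front of its target genes. The IFIT proteins bind foreign RNA and hinder its translation. The OAS proteins sense double-stranded RNA and make 2-5A, a small signalling molecule, while the OAS-like proteins carry ubiquitin-like domains. In tumours these genes are commonly read as a sign of interferon signalling in cancer cells, leukocytes and stroma alike.

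The genes lie in a few clusters. All 9 identifiers match GENCODE M21 with their version, and positions are from that annotation of GRCm38. Ifit2 (ENSMUSG00000045932.12, chr19:34550694-34576419), Ifit3 (ENSMUSG00000074896.3, chr19:34583531-34588731) and Ifit1 (ENSMUSG00000034459.8, chr19:34640871-34650009) follow each other on the plus strand of chromosome 19. On chromosome 5, Oasl2 (ENSMUSG00000029561.17, chr5:114896936-114912234) and Oasl1 (ENSMUSG00000041827.15, chr5:114923240-114937915) are neighbours on the plus strand. Further along, on the minus strand, are Oas2 (ENSMUSG00000032690.16, chr5:120730333-120749853), Oas3 (ENSMUSG00000032661.9, chr5:120753098-120777661), Oas1g (ENSMUSG00000066861.14, chr5:120876142-120887613) and Oas1a (ENSMUSG00000052776.10, chr5:120896256-120907521). All are protein coding, and the counts are over their exons.

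Promoters are shown because the members moved together and because the motif of interferon target genes can be read in them. RefSeq windows on GRCm38.p6, from 250 bases before to 50 bases after the start site, were given for 8 members, all but Oas2. The core of the interferon stimulated response element, GAAANNGAAA or its reverse complement TTTCNNTTTC, was searched on both strands. It was present in the windows of Ifit1, Ifit3, Oas1a, Oas1g and Oas3, which is 5 of the 8, against 3.99% of 27025 genes with a window. It was not present in the windows of Ifit2, Oasl1 or Oasl2, which says only that these letters are not in that stretch. Below are the 250 bases before the start site of the 5 members with a match and of Oasl2, which had the highest level of all members, written 5′ to 3′ along the gene with the matches in capitals.
Ifit1 (chr19:34640639-34640888, plus strand): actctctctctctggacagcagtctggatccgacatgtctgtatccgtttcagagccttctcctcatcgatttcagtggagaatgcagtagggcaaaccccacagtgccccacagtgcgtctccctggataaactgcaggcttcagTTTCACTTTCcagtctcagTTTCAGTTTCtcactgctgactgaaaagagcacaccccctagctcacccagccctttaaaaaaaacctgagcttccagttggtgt
Ifit3 (chr19:34583279-34583528, plus strand): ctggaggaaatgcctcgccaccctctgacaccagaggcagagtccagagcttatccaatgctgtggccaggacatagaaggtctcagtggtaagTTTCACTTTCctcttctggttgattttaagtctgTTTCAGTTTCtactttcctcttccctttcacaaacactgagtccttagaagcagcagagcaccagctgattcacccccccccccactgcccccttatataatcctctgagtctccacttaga
Oas1a (chr5:120907526-120907775, minus strand): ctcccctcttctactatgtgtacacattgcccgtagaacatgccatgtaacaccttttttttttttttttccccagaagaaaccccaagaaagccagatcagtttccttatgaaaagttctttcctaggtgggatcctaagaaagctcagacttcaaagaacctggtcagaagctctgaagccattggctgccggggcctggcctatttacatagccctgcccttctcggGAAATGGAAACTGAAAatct
Oas1g (chr5:120887614-120887863, minus strand): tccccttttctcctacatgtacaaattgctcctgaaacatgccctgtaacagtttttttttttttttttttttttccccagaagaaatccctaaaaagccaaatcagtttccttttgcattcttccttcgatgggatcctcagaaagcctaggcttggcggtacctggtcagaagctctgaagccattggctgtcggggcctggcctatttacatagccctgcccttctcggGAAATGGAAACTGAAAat
Oas3 (chr5:120777660-120777909, minus strand): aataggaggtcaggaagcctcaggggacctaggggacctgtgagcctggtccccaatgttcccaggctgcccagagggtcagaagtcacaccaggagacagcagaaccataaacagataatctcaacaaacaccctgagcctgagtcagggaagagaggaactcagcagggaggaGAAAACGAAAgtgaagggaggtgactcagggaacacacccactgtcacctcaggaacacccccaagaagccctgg
Oasl2 (chr5:114896684-114896933, plus strand): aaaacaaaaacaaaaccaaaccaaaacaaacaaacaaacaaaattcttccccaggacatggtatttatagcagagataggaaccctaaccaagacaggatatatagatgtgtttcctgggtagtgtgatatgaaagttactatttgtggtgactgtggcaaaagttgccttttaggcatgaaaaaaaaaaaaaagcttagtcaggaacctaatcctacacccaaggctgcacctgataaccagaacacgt
Counting back from the start site, the first base of the matches lay at -104 and -85 in Ifit1 and at -156 and -122 in Ifit3, all on the strand opposite to the gene. In Oas1a the matches began at -20 and -14 and in Oas1g at -18 and -12, on the gene's own strand, and in both genes these overlap, so that they form 1 longer run. The match in Oas3 began at -75. The windows of Oas1a and Oas1g were identical at 85.3% of aligned positions, those of Oasl1 and Oasl2 at 45.9%.

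Nearly identical copies limit what the counts can tell apart. Of the 100-base words in the transcripts of Oas1a, 40.9% also occur in another gene, and for Oas1g 31.2%, with the 2 genes sharing 730 words. For Ifit3 the share was 31.7%, all of it with its neighbour Ifit3b, and for Ifit1 3.29%. The other 5 members shared none, although an exon of Oasl1 overlaps Gm13822. Values of Oas1a, Oas1g and Ifit3 are therefore uncertain by the reads that the counting could have split or dropped.

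All 9 genes were well detected, and each passed the filter on low counts in every comparison. Per kb of exon, the median level over the 39 tumours was highest for Oasl2 (57.7 CPM per kb), Ifit3 (54.9) and Oas1a (53.7). It was 34.2 CPM per kb for Oas2, 31.3 for Oas1g, 26.7 for Ifit2 and 26.6 for Ifit1. Oasl1 (14.8) and Oas3 (10.9) were lowest. Levels in CPM, which are not corrected for length, follow for each gene with the comparisons.

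**Figure D1:**
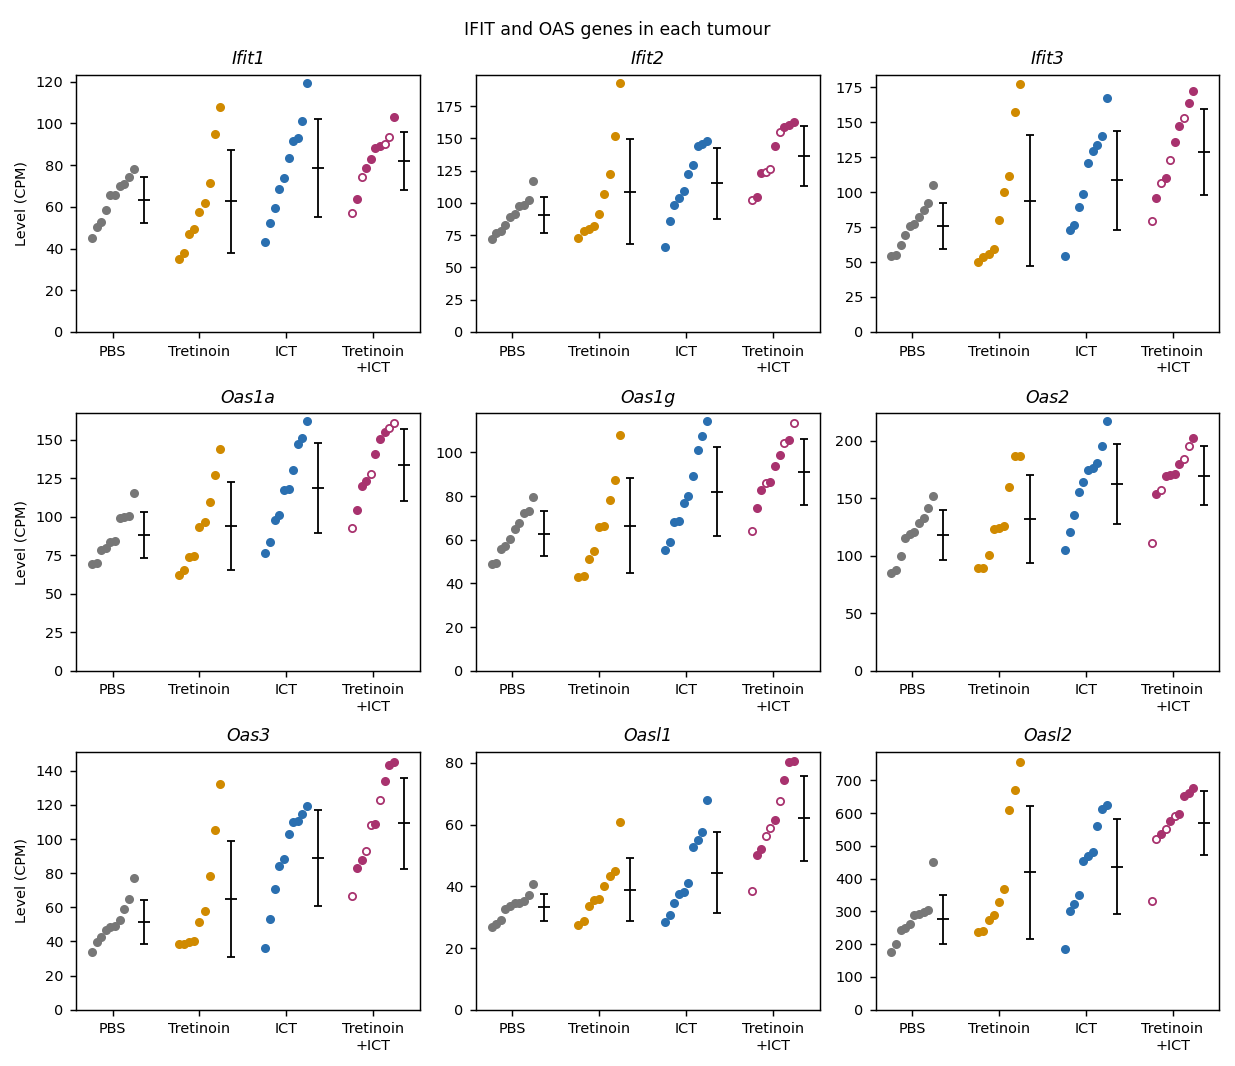
Level of each gene in CPM (vertical axes, from 0) in every tumour, by treatment group. Each point is 1 tumour, open points are non-responders, and the bar to the right of each group is the mean ± SD. In the PBS group Oasl2 lay between 176 and 451 CPM, in the tretinoin group the points spread from 237 to 757 CPM, and in the tretinoin+ICT group 9 of 10 lay above every PBS tumour.

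The first comparison asked what tretinoin alone does to these genes. No member passed the test, although 8 of 9 were higher than in PBS tumours, and the levels after tretinoin were widely spread. For Oasl2, which has ubiquitin-like domains, PBS tumours had between 176 and 451 CPM with a median of 276, and tretinoin tumours between 237 and 757 with a median of 329. In 3 of the 9 tretinoin tumours (replicates 2, 3 and 6) Oasl2 was above every PBS tumour, and the other 6 lay within the PBS range. The log2 fold change of Oasl2 was 0.61 ± 0.24 (SE; edgeR adjusted p = 0.0767), the highest among the members.

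The same 3 tretinoin tumours were above every PBS tumour for Ifit2, Ifit3, Oas2, Oas3 and Oasl1 as well. For Ifit1, Oas1a and Oas1g only 2 of them were, and replicate 3 lay inside the PBS range. Ifit2, an RNA-binding member of its family, was at 193, 152 and 123 CPM in replicates 6, 2 and 3, against a highest PBS value of 117 and a PBS median of 90.6. Oas3, a large synthetase that prefers long double-stranded RNA, was at 133, 105 and 78.6 CPM in these tumours, against 33.9 to 77.0 in PBS tumours. The remaining 6 tretinoin tumours had between 38.6 and 58.0 CPM of Oas3 and overlapped the PBS group. Fold changes were 0.27 ± 0.17 for Ifit2 (adjusted p = 0.257) and 0.34 ± 0.24 for Oas3 (adjusted p = 0.332) on the log2 scale. Ifit1, which binds RNA with an incomplete cap, ran from 35.1 to 108 CPM after tretinoin and from 45.1 to 78.3 after PBS, with a log2 fold change of -0.01 ± 0.19 (adjusted p = 0.98). Its sign differed between single series, being positive for both tretinoin series against PBS series 1 and negative against PBS series 5.

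Counted over the list, 0 of 9 members were called after tretinoin at an adjusted p below 0.05 and a log2 fold change of at least 1, where 1.49% of all 14340 genes tested were called higher. At the adjusted p alone the count was also 0, against 11.5% of all genes, and DESeq2 gave 0 by either rule. At an unadjusted p below 0.05 there was 1 member, Oasl2, and 18.7% of all genes were higher. The median log2 fold change was 0.23 over the members and 0.01 over all genes tested. The SD of log2 CPM in the tretinoin group was 0.66 for Oasl2, 0.68 for Oas3 and 0.69 for Ifit3, which binds other IFIT proteins. In the PBS group it was 0.37, 0.35 and 0.32 for these genes. No test of this spread was made.

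The second comparison asked what ICT alone does. Here 7 of 9 members rose at the adjusted p, by a modest amount. Oas3 rose the most, with 33.9 to 77.0 CPM (median 48.7) in PBS tumours and 36.3 to 119 (median 95.7) in ICT tumours. Of the 10 ICT tumours, 7 were above every PBS tumour and replicate 10 was near the lowest PBS value, so the groups overlapped. Its log2 fold change was 0.79 ± 0.19 (edgeR adjusted p = 0.00822).

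Oasl2 rose by 0.66 ± 0.19 on the log2 scale after ICT (adjusted p = 0.0221), with 184 to 626 CPM in ICT tumours and 6 of 10 above every PBS tumour. Oas2, a synthetase of middle size, had 85.5 to 152 CPM (median 120) in PBS tumours and 105 to 217 CPM (median 169) in ICT tumours. It rose by 0.45 ± 0.12 (adjusted p = 0.0153). The other members that rose were Ifit3 (0.51 ± 0.17, adjusted p = 0.0445), Oas1a (0.42 ± 0.13, adjusted p = 0.0251), Oas1g (0.38 ± 0.13, adjusted p = 0.0396) and Oasl1 (0.41 ± 0.14, adjusted p = 0.0359). Oas1a and Oas1g encode small synthetases, and Oasl1 is a protein without synthetase activity that represses translation of Irf7. Ifit1 and Ifit2 did not pass, with log2 fold changes of 0.31 ± 0.15 (adjusted p = 0.146) and 0.34 ± 0.12 (adjusted p = 0.0544).

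By the rule with a fold minimum, 0 of 9 members were called after ICT (2.28% of 14155 genes were called higher), and DESeq2 also called 0. At the adjusted p alone the 7 members compare with 14.1% of all genes, and DESeq2 gave 8. At an unadjusted p below 0.05 there were 8, with 20% of all genes higher. The median log2 fold change of the members was 0.42, against -0.02 over all genes. All 9 members were higher in each of the 4 pairs of an ICT series with a PBS series, but none passed in a single pair. The count depended on the filter and on single tumours: it was 2 with no filter on low counts, and 5 with all 39 tumours in one fit, where Ifit3 (adjusted p = 0.0849) and Oas1g (adjusted p = 0.0588) no longer passed. It fell to 4 when any one of ICT replicates 2, 3, 6 or 8 or PBS replicates 2, 3, 5, 8 or 10 was left out.

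The third comparison set both treatments together against PBS, with the same PBS tumours as above. All 9 members rose. Oas3 was at 66.4 to 145 CPM (median 109) in tretinoin+ICT tumours, and 9 of 10 lay above every PBS tumour. Its log2 fold change was 1.09 ± 0.16 (edgeR adjusted p = 1.4e-05). Oasl2 was at 332 to 676 CPM (median 584), again with 9 of 10 above every PBS tumour, and rose by 1.05 ± 0.14 (adjusted p = 7.65e-06). Oasl1 went from 26.8 to 40.6 CPM (median 34.1) in PBS tumours to 38.6 to 80.8 CPM (median 60.2), a rise of 0.91 ± 0.12 (adjusted p = 4.14e-06).

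The remaining members rose less. Ifit3 rose by 0.77 ± 0.15 (adjusted p = 0.000239), Oas1a by 0.60 ± 0.11 (adjusted p = 0.000128) and Ifit2 by 0.59 ± 0.10 (adjusted p = 6.87e-05). Oas1g rose by 0.54 ± 0.10 (adjusted p = 0.000248) and Oas2 by 0.52 ± 0.11 (adjusted p = 0.00046). Ifit1 rose by 0.38 ± 0.11 (adjusted p = 0.00671), from 45.1 to 78.3 CPM (median 65.7) to 57.2 to 103 CPM (median 85.7), and its groups overlapped the most, with 7 of 10 above every PBS tumour. Non-responder replicate 4 was the lowest tretinoin+ICT tumour for all 9 genes.

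With the fold minimum, 2 of 9 members (Oas3 and Oasl2) were called, where 5.45% of 14265 genes were called higher. At the adjusted p alone the 9 members compare with 25.7% of all genes, and DESeq2 gave 9 and 2 by the 2 rules. At an unadjusted p below 0.05 there were 9, with 28.1% of all genes higher. The median log2 fold change was 0.60, against -0.01 over all genes. Oasl2 sat close to the fold minimum, and without PBS replicate 2 only Oas3 was called, a count of 1. With all 39 tumours in one fit 8 members passed, and Ifit1 did not (adjusted p = 0.0638). All 9 members were higher in each of the 4 pairs of series, and the lowest value in a pair was 0.18, for Ifit1. The study's own list of interferon stimulated genes holds Ifit3, Oas1a, Oas1g, Oas2, Oas3 and Oasl1, so for these genes the direction is not independent evidence.

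**Figure D2:**
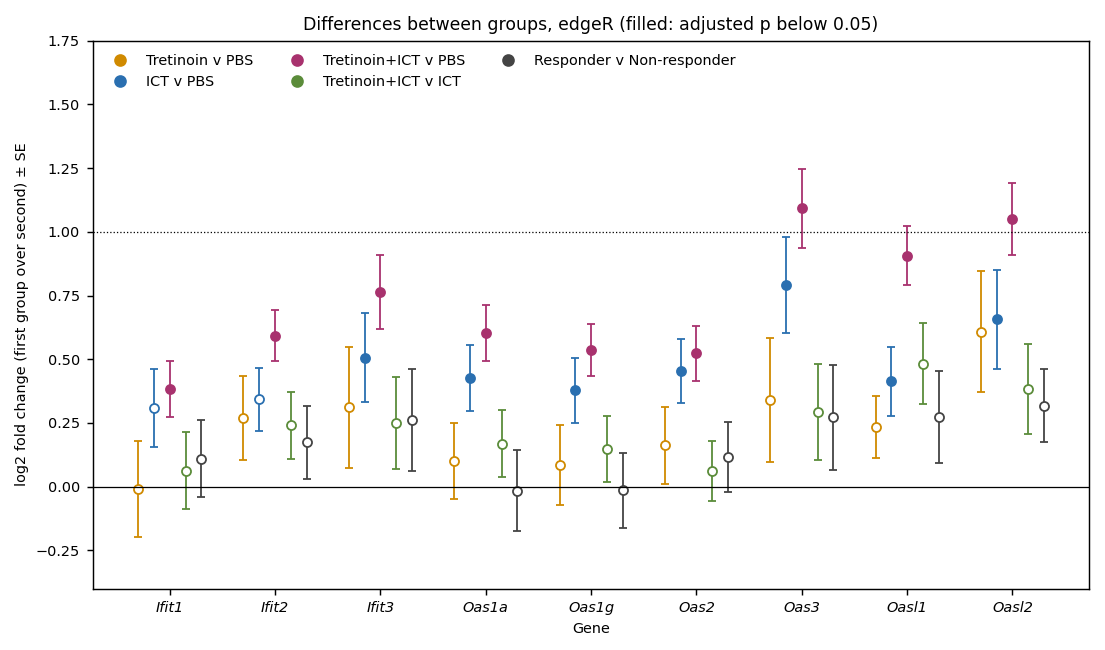
Log2 fold change of each gene (vertical axis, points ± SE from edgeR) in 5 comparisons, given by colour. Filled points passed the test at an adjusted p below 0.05 and the dotted line marks a log2 fold change of 1. All 9 genes are filled for tretinoin+ICT against PBS, where only Oas3 and Oasl2 are above the line, 7 are filled for ICT against PBS, and none is filled for tretinoin against PBS, tretinoin+ICT against ICT, or responders against non-responders.

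Tretinoin+ICT was also set against each treatment alone. Against ICT, all 9 members were higher but none passed. Oasl1 had the largest difference, 0.48 ± 0.16 on the log2 scale (adjusted p = 0.127), with 28.3 to 68.1 CPM (median 39.7) after ICT and 38.6 to 80.8 CPM (median 60.2) after both. Of the tretinoin+ICT tumours 9 of 10 were above the ICT median and 3 of 10 above every ICT tumour. With all 39 tumours in one fit, Oasl1 alone passed at the adjusted p. Over the list 0 of 9 were called with the fold minimum (0.366% of all genes) and 0 at the adjusted p (1.57% of all genes), by edgeR and DESeq2 alike, and 2 had an unadjusted p below 0.05 (9.58% of all genes were higher).

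Against tretinoin, 4 of 9 members rose at the adjusted p, where 12.3% of all genes did. These were Oasl1 (0.67 ± 0.15, adjusted p = 0.00575), Oas1a (0.50 ± 0.15, adjusted p = 0.0258), Oas3 (0.75 ± 0.24, adjusted p = 0.0341) and Oas1g (0.45 ± 0.16, adjusted p = 0.0458). With the fold minimum 0 were called (1.87% of all genes), also by DESeq2, which gave 4 at the adjusted p. At an unadjusted p below 0.05 there were 6, with 19.9% of all genes higher. The IFIT genes did not pass, with log2 fold changes of 0.39 ± 0.18 for Ifit1, 0.32 ± 0.17 for Ifit2 and 0.45 ± 0.24 for Ifit3. Oas2 (0.36 ± 0.14, edgeR adjusted p = 0.0727) and Oasl2 (0.44 ± 0.22, adjusted p = 0.144) did not pass either.

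This count rested on few tumours. It was 8 without tretinoin replicate 6, which had the highest level in its group for 8 members, and 1 without tretinoin replicate 7 or 8. It was 2 without tretinoin replicate 1, 4, 5 or 9, without responder replicate 2, 3 or 4, and with no filter on low counts. Between ICT and tretinoin no member passed, all 9 were higher after ICT, and none had an unadjusted p below 0.05, where 11.4% of all genes were higher. In that comparison 0.636% of all genes were called higher with the fold minimum, 4.13% were higher at the adjusted p, and DESeq2 also gave 0.

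Whether tretinoin changed these genes differently with ICT than without was tested as an interaction over all 39 tumours. No member passed, while 0.0401% of all genes passed in the positive and 0.267% in the negative direction. Values ran from -0.22 ± 0.30 for Oasl2 to 0.25 ± 0.21 for Oasl1 on the log2 scale, with adjusted p-values from 0.734 to 0.981. No member had an unadjusted p below 0.05, and DESeq2 gave 0. The SEs ran from 0.19 to 0.31, so an interaction of that size was not detectable.

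Responders and non-responders to tretinoin+ICT were compared last. No member separated them. Oasl2 came closest, at 332, 521, 552 and 591 CPM in the 4 non-responders and at 538 to 676 CPM (median 625) in the 6 responders, of which 4 lay above every non-responder. Its log2 fold change was 0.32 ± 0.14 (edgeR adjusted p = 0.213). Oas1a was at 92.8, 128, 158 and 161 CPM in non-responders and 105 to 155 CPM (median 132) in responders, inside the range of the non-responders. The groups also overlapped for Ifit3, at 79.6, 107, 123 and 153 CPM in non-responders and 95.7 to 173 CPM in responders (0.26 ± 0.20, adjusted p = 0.47).

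Over the list, edgeR called 0 of 9 members (0% of 14604 genes) and 0 passed at the adjusted p (0% of all genes). DESeq2 also gave 0 members by either rule, but its share over all genes was not worked out. The study, which used DESeq2, reports genes higher and genes lower in responders. At an unadjusted p below 0.05 there was 1 member, Oasl2, and 13.4% of all genes were higher. Log2 fold changes ran from -0.02 to 0.32, with a median of 0.17 against 0.01 over all genes. Of the non-responders 3 were of name series 2 and 1 of series 4. With the series as a block all 9 values were positive, from 0.12 to 0.45, and none passed. The T and NK cell markers had a median log2 fold change of 0.66 and the 9 genes associated with interferon gamma one of 0.67 in the same comparison, and none of them passed either.

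**Figure D3:**
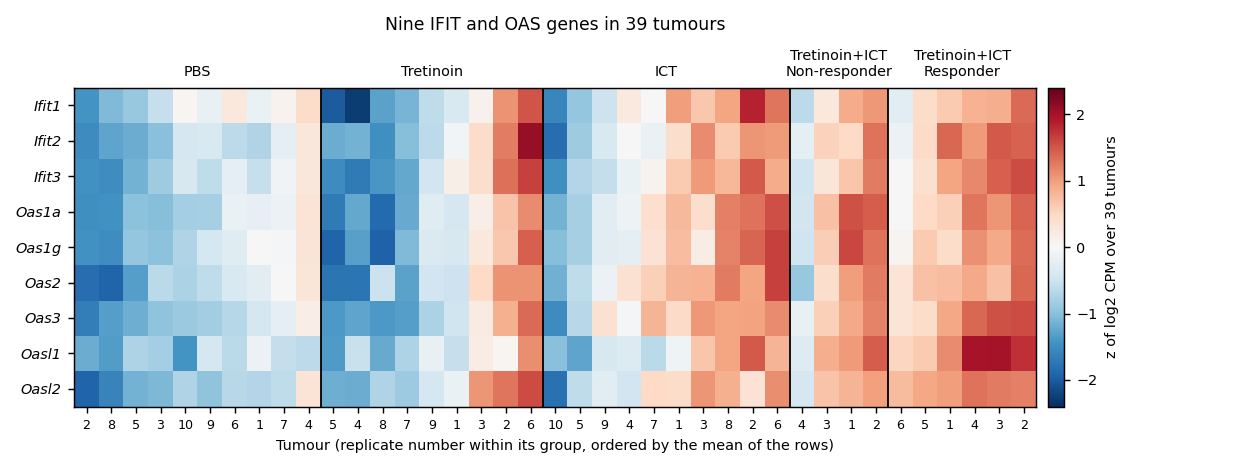
Level of the 9 genes (rows) in each of the 39 tumours (columns, replicate numbers), as z of log2 CPM over all tumours, from blue (low) to red (high). Within each group the columns run from the lowest to the highest mean of the 9 rows. Most columns are mainly of 1 colour, so a tumour high in 1 gene was mostly high in the others, and PBS replicate 4 is the highest of its group with a mean z of 0.20.

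Across tumours the 9 genes went up and down together. Spearman's rho between pairs of members over the 39 tumours ran from 0.80 (Ifit1 and Oasl1) to 0.99 (Oas1a and Oas1g, which share sequence). After the mean of each treatment group was subtracted, Pearson's r still ran from 0.74 (Oasl1 and Oasl2) to 0.99. The tumours share their normalisation, and these values are a description. Averaged over the members as z of log2 CPM, tretinoin tumours ran from -1.55 to 1.44 (SD 1.08), ICT tumours from -1.39 to 1.23 (SD 0.88), PBS tumours from -1.54 to 0.20 (SD 0.55) and tretinoin+ICT tumours from -0.45 to 1.44 (SD 0.59). The lowest tretinoin and ICT tumours lay among the lowest PBS tumours, and the lowest tretinoin+ICT tumour lay inside the upper part of the PBS range.

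Among 14968 other genes, the 8 whose log2 CPM followed this mean most closely over the 39 tumours were Ifi44 (Spearman's rho 0.985), Phf11d (0.975), Dhx58 (0.962), Rtp4 (0.961), Irf7 (0.96), Ifit3b (0.958), Parp12 (0.957) and H2-T24 (0.956). The median rho over all genes was -0.04. Ranked by Pearson's r, or after group means were subtracted, 6 of these 8 stayed among the first 8. Ifit3b shares sequence with Ifit3.

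The ratio between members within a tumour, which does not depend on how many reads the tumour has, overlapped between groups for most pairs of members. Of 36 pairs, 28 overlapped between tretinoin+ICT and PBS tumours and in 8 all 10 tretinoin+ICT tumours were above every PBS tumour. How often pairs of other genes part in this way was not worked out, so whether 8 of 36 is unusual is not known. All 36 overlapped between tretinoin and PBS and between ICT and PBS, and 35 between ICT and tretinoin. Between responders and non-responders 34 overlapped. The 2 that did not were Oasl2 against Oas1a and against Oas1g, with 6 of 6 responders above every non-responder. These 2 ratios are not separate evidence, because Oas1a and Oas1g share sequence, and they were not tested. Oas1g against Oas1a, which share sequence, differed little, with mean differences from PBS tumours of -0.03 to -0.06 on the log2 scale over the 3 treatments. The 4 ratios that follow were picked because their groups stood apart, after the levels had been seen, and carry no test. Oasl2 was between 3.89 and 5.76 times Ifit1 in PBS tumours (CPM, median 4.20). It was between 5.51 and 8.57 times Ifit1 after tretinoin (median 6.29), with 7 of 9 tumours above every PBS tumour, and between 5.80 and 8.47 after tretinoin+ICT (median 7.11), with 10 of 10 above. After ICT alone it ran from 3.81 to 7.34 (median 5.84).

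Oas3 against Ifit1 ran from 0.689 to 0.983 in PBS tumours and from 1.12 to 1.60 after tretinoin+ICT, again without overlap. Oasl1 against Ifit1 ran from 0.383 to 0.642 in PBS tumours and from 0.656 to 0.910 after tretinoin+ICT, where 10 of 10 were above. For Oasl2 against Oas3 the treatments parted in another way. That ratio was 5.71 to 7.76 after tretinoin and 4.10 to 5.67 after ICT, so that every ICT tumour was below every tretinoin tumour. In PBS tumours it was 4.68 to 6.00 and after both treatments 4.49 to 6.58.

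**Figure D4:**
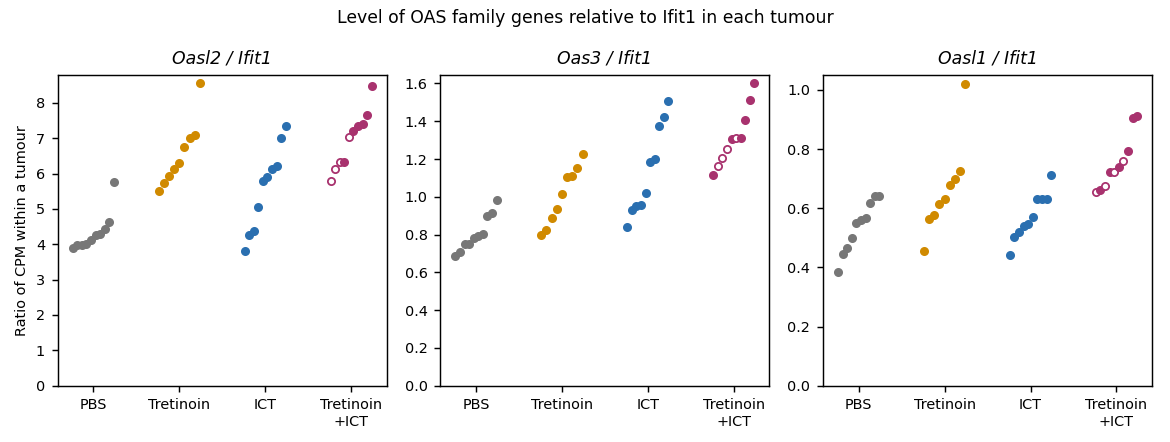
Ratio of the CPM of Oasl2, Oas3 and Oasl1 to that of Ifit1 within each tumour (vertical axes, from 0), by treatment group. Each point is 1 tumour and open points are non-responders. After tretinoin+ICT all 10 points of each panel lie above all PBS points, the lowest being 5.80, 1.12 and 0.656.

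The rest of the interferon pathway was read from lists chosen for it. At its head, 20 of 21 listed interferon genes were found and none passed the filter on low counts. The 20 were all of type I or type III, and type II interferon was not analysed here. Their summed level was between 0 and 0.686 CPM in every tumour. Ifnb1 had at most 4 counts in a tumour, and 16 of the 39 tumours had any. At this depth a difference in the RNA of type I or type III interferons was not detectable.

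Of the 6 interferon receptor genes, 5 of 5 tested rose after tretinoin+ICT, 4 of 6 after ICT and 3 of 6 after tretinoin, all against PBS. Of all genes tested, 25.7%, 14.1% and 11.5% were higher at the adjusted p in these comparisons, in the same order. Ifnlr1, a chain of the type III receptor, fell by 1.08 after tretinoin (adjusted p = 0.0146). It had at most 29 counts in a tumour, and after ICT its value was -0.51 without passing (edgeR adjusted p = 0.188). Ifnar2, a chain of the type I receptor, rose by 0.45 after tretinoin (adjusted p = 0.0015) and by 0.67 after both (adjusted p = 2.27e-06). Of 9 signal transducers and feedback genes found, 3 rose after tretinoin, 6 after ICT and 8 after both. Irf7, the amplifier of type I interferon production, rose by 0.47 after ICT (adjusted p = 0.00889) and 0.56 after both (adjusted p = 0.000109). Of 11 nucleic acid sensors, 3 rose after tretinoin, 6 after ICT and 10 after both.

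Downstream of the OAS enzymes, Abce1, which recycles ribosomes, fell by 0.30 after both (adjusted p = 0.000102). Pde12, which degrades 2-5A, fell by 0.17 (adjusted p = 0.0147).

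Among other type I interferon effectors, 24 of 26 listed genes were found, and 2 rose after tretinoin, 16 after ICT and 21 after both. The median log2 fold changes of that list were 0.20, 0.46 and 0.68, where those of the members were 0.23, 0.42 and 0.60. Of all genes tested, 11.5% were higher at the adjusted p after tretinoin, 14.1% after ICT and 25.7% after both. Mx1, an antiviral GTPase, and Rsad2, or viperin, rose after both (0.34, adjusted p = 0.0205, and 0.54, adjusted p = 0.000353). Genes associated with interferon gamma moved further. Of 9 found, 5 rose after tretinoin, 9 after ICT and 9 after both, with medians of 1.20, 1.5 and 2.27. Of 9 further IFIT and OAS family genes 6 could be tested, and 0, 1 and 5 of them rose. The largest rise was that of Oas1h after both (1.04, adjusted p = 0.00128), a gene at or below 1.55 CPM in every tumour. Oas1b rose by 0.47 after ICT (adjusted p = 0.00766).

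Among markers of single kinds of leukocyte, those of macrophages, monocytes and neutrophils rose most often after ICT and after both, but no neutrophil marker rose after tretinoin. Ptprc, carried by all leukocytes, had log2 fold changes of 0.14 after tretinoin (edgeR adjusted p = 0.562) and 0.57 after ICT (adjusted p = 0.0723), and rose by 0.72 after both (adjusted p = 0.000656). Of 6 macrophage and monocyte markers found, 2 rose after tretinoin, 6 after ICT and 6 after both, and their summed level was 1563 to 2551 CPM in PBS, 1749 to 3517 in tretinoin, 1652 to 3899 in ICT and 2200 to 3683 in tretinoin+ICT tumours. Of 4 neutrophil markers, 0, 4 and 4 rose, with summed levels of 46.2 to 111, 56.0 to 163, 67.4 to 266 and 100.2 to 261 CPM in the same order. Of 7 T and NK cell markers, 0, 1 and 2 rose, and of 4 B cell markers 0, 0 and 1. Of all genes tested, 11.5%, 14.1% and 25.7% were higher at the adjusted p, in the same order. Of 4 dendritic cell markers, 1, 1 and 2 rose. Clec9a was the one after tretinoin (1.20, edgeR adjusted p = 0.000481) and after ICT (0.86, edgeR adjusted p = 0.0206). Of 5 markers of plasmacytoid dendritic cells, cells known for making type I interferon, 1, 0 and 2 rose, with list medians of 0.03, 0.06 and 0.44. After both, Klk1 (0.69, adjusted p = 0.00527) and Pacsin1 (0.44, adjusted p = 0.0318) rose, Cox6a2 and Ccr9 were at 0.61 and 0.41 without passing (adjusted p = 0.064 and 0.0756), and Siglech, their surface marker, was at -0.02. None of the markers found for these kinds of cells was at 0 throughout a treatment group.

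Over the 39 tumours the summed macrophage and monocyte markers followed the members' mean with Pearson's r of 0.72 and Spearman's rho of 0.717, and with r of 0.54 after group means were subtracted. For neutrophil markers these values were 0.754, 0.754 and 0.59, for T and NK cell markers 0.389, 0.401 and 0.32, for B cell markers 0.279, 0.203 and 0.25, and for endothelial markers -0.111, -0.0879 and -0.16. For Ptprc, carried by all leukocytes, they were 0.745, 0.786 and 0.62, so the members followed it as closely as the myeloid lists. They were 0.487, 0.492 and 0.24 for dendritic cell markers and 0.40, 0.417 and 0.26 for plasmacytoid dendritic cell markers. Without the 2 tumours farthest from the median of the members' mean, r was 0.724 for the macrophage and monocyte markers and 0.788 for the neutrophil markers. The part of these cells in the results was not tested.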

How the data were processed

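Single-end reads of 100 bases were made on an Illumina NovaSeq. Per the submitters' processing notes, bcl2fastq 2.20.0.422 and HISAT2 2.0.4 were used. The authors aligned reads to the mouse genome they name mm11 and counted them on genes with SummariseOverlaps, and the deposited values are raw counts, whole numbers without normalization. Strand mode and the treatment of reads that align to several places are not given in the sources used here, so reads of overlapping or near-identical genes may be split or lost.

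From the counts, R 4.3.3 with edgeR 4.0.16 gave CPM (TMM library sizes) and, for each comparison, a quasi-likelihood test on the tumours of both groups alone after filterByExpr. All p-values are two-sided and were adjusted by Benjamini-Hochberg over all genes tested. Calls needed an adjusted p below 0.05 together with a log2 fold change of 1 or more in either direction. Shares over all genes are those of the edgeR fits. The interaction was fitted on all 39 tumours and called at the adjusted p alone. SEs were worked out from the fold change and its F statistic. The fit was tested on simulated data. Alternatives were DESeq2 1.42.0, its size factors, other filters on low counts, all tumours in one fit, no fold minimum, single name series, the series as a block, and leaving out each tumour. Python 3.11.15 with pandas 2.3.3, numpy 2.4.6 and scipy 1.17.1 was used for summaries.

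Tumours were grouped by their treatment and response labels, and replicates were numbered in the order of deposition. Total counts between 14033046 and 37951183 gave each member between 471 and 19519 counts in a tumour, and the precision rests on both counting and the spread between tumours. The members and gene lists were chosen with earlier results of these data known. By rule, the text names the 9 members, up to 4 genes of a list with the smallest adjusted p in a comparison, Ifnb1, Ifng, Irf7, Irf9, Isg15, Rsad2, Mx1 and Ptprc where measured, and the 8 genes most alike. Upk3b, Siglech, Cox6a2, Ccr9, Oas1h and the ratios between members were chosen after their values were seen. Some genes that the rule also covers are not reported here.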

Additional observations from a re-analysis of the deposited data

Results flagged for a closer look

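In 1 tumour, a pair of genes lay further from its group than a test for a single outlying value (Dixon's, at the 95% level) allows. In non-responder replicate 4 of the tretinoin+ICT group, Oasl2 was at 331.7 CPM, and its gap to the next tumour was 0.634 of the group's range. In the same tumour Oas2 was at 111.6 CPM, with a gap of 0.536 of the range. Of 54 sets of a member and a group, these 2 passed, and chance alone passes about 1 in 20. The other 7 members were also lowest in this tumour. Without it, no member passed between responders and non-responders, and the values of Ifit1, Oas1a, Oas1g and Oas2 were negative.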

How the results depend on the processing

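Of 576 log2 fold changes of single members under other settings than leaving out a tumour, 503 kept their direction and their side of the adjusted p, 59 no longer passed, 4 passed newly and 10 had another sign. Most of the 503 did not pass to begin with. Only members that had passed could be lost, which were 7 for ICT and 9 for tretinoin+ICT, each against PBS, and 4 for tretinoin+ICT against tretinoin. The 59 all come from these, so results that passed were less stable than the total shows. No member changed direction with DESeq2 or its size factors. With no fold minimum the number of members called became 7 after ICT and 9 after tretinoin+ICT, each against PBS, and 4 for tretinoin+ICT against tretinoin. With no filter on low counts, which tests more genes, 2 passed the adjusted p for ICT against PBS and 2 for tretinoin+ICT against tretinoin. With all 39 tumours in one fit, 1 passed for tretinoin+ICT against ICT and 5 against tretinoin, and fewer passed against PBS, 5 for ICT and 8 for tretinoin+ICT. In single series, which hold fewer tumours, 0 passed for ICT against PBS in all 4 pairs, and for tretinoin+ICT against tretinoin 1 passed in series 2 against 3 and 0 in the other 3 pairs. In series 4 against 1, 5 passed and 1 was called for tretinoin+ICT against PBS.

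Signs turned for values near 0: Ifit2 for ICT against tretinoin in series 8 against 3 (-0.0046) and 8 against 7 (-0.0076), and Ifit1 for tretinoin against PBS in series 3 against 1 (0.0018) and 7 against 1 (0.13). For tretinoin+ICT against ICT they turned for Ifit1 in series 4 against 6 (-0.15), for Oas1g in 4 against 8 (-0.0068) and for Oas2 in 4 against 6 (-0.0305) and 4 against 8 (-0.0605). With the series as a block, responders against non-responders gave 0.13 for Oas1a and 0.12 for Oas1g. The cause was not tested.

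Leaving out 1 tumour at a time, the number of members past the adjusted p ran from 4 to 9 for ICT against PBS, from 0 to 1 for tretinoin against PBS (1 without PBS replicate 4) and from 1 to 8 for tretinoin+ICT against tretinoin. For tretinoin+ICT against PBS, an alternative chosen after seeing the data, 1 to 2 were called and 9 passed in every fit. Log2 fold changes that crossed 0 ran from -0.0167 to 0.18 for Ifit1, -0.16 to 0.0611 for Oas1a, -0.15 to 0.0819 for Oas1g and -0.0264 to 0.19 for Oas2 between responders and non-responders. Against PBS, tretinoin gave -0.15 to 0.0692 for Ifit1 and -0.0334 to 0.15 for Oas1g, and tretinoin+ICT against ICT gave -0.0077 to 0.15 for Ifit1. Tumours were not left out for ICT against tretinoin or the interaction. No paired analysis was possible because the labels give the groups no shared replicate numbers.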
